A study of Mus musculus with 11 samples.

Results

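The teashirt zinc finger genes Tshz1, Tshz2 and Tshz3 were examined in the newborn mouse main olfactory epithelium (MOE) with and without the transcription factor Bcl11b. They were 3 of the 18194 genes that the array annotation names alone, and 6 of its 34958 probe sets that carry 1 gene symbol. Tshz1 had 2 probe sets, Tshz2 had 3 and Tshz3 had 1, and all 6 passed the filter on low values. The genes were chosen with their KO and wild type values already known, so the difference between these groups is given for them as a description, without a test.

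The study compared whole MOE from 5 wild type and 6 Bcl11b knockout (KO) mice on the BALB/c background at postnatal day 0, with 1 expression array for each mouse. The KO is conventional, so Bcl11b was lost in every tissue from conception, and both genotypes were born to parents heterozygous for the deletion. All 5 wild type mice and 4 KO mice were male, and KO replicates 3 and 6 were female. The labels name no treatment, litter or day of dissection.

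Teashirt proteins are zinc finger transcription factors named after the fly gene teashirt, which patterns the trunk and takes part in eye development. They act mostly as repressors, recruiting C-terminal binding proteins and histone deacetylases to DNA. In mice, Tshz1 is known from the olfactory system, where it is needed by new interneurons that settle in the olfactory bulb, and from the palate and middle ear. Tshz3 is known from the smooth muscle of the ureter and from the neurons that drive breathing, and the function of Tshz2 is less well described.

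Signals are intensities scaled by the authors so that 1 GAPDH probe set reads 10000 on every array. Median signals ranged from 56.6 to 85.5 on wild type arrays and from 61.9 to 86.3 on KO arrays. Bcl11b was lower in the KO on every array: its brightest probe set lay between 2694.3 and 4122.7 in wild type and between 560.5 and 1249.8 in the KO. Olfactory sensory neuron (OSN) markers were present on all arrays, with Cnga2, a subunit of the olfactory transduction channel, at 982.9 or more and Gap43, a growth-associated protein of immature neurons, at 2276.9 or more. Xist and 2 Y-linked genes followed the sex given in the labels without exception. Of the 33662 probe sets tested, 82 rose and 71 fell in the KO by limma at an adjusted p under 0.05, which is 0.455% of them. The higher calls were 53.6% of the called probe sets, but 41% with quantile normalization and 17% with scaling to spiked controls. On 241 probe sets every KO array lay above every wild type array, and on 193 every KO array lay below, together 1.29% of those tested.

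Tshz1 was the member whose groups separated. On probe set 1427233_at the wild type signals were 2653.6, 3195.5, 3100.9, 2578 and 2814.8, while the KO signals had a lowest value of 3345.1, a median of 3634.6 and a highest value of 4032. All 6 KO arrays therefore lay above all 5 wild type arrays, with the closest pair being wild type 2 and KO 3. The mean was 2869 ± 271 for wild type (SD, n = 5) and 3665 ± 277 for the KO (SD, n = 6), which put the KO at 127.8% of wild type, a difference of 0.35 ± 0.09 (SE) on the log2(signal + 16) scale. This was the only 1 of the 6 probe sets without overlap, beside 1.29% of all probe sets, and nothing is read from that count since the genes were chosen on this contrast.

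The other Tshz1 probe set, 1427232_at, gave a difference of the same size with far more scatter. Its wild type signals were 893.6, 1183.3, 731.7, 509.1 and 680.7, and its KO signals ran from 564.3 through a median of 1099 to 1277.4. KO replicates 4, 5 and 6 lay above every wild type array, wild type 4 lay below every KO array, and the remaining arrays overlapped. The difference was 0.36 ± 0.22 (SE), and the coefficient of variation was 31.8% in wild type and 28.2% in the KO, against 9.46% and 7.57% on 1427233_at.

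**Figure D1:**
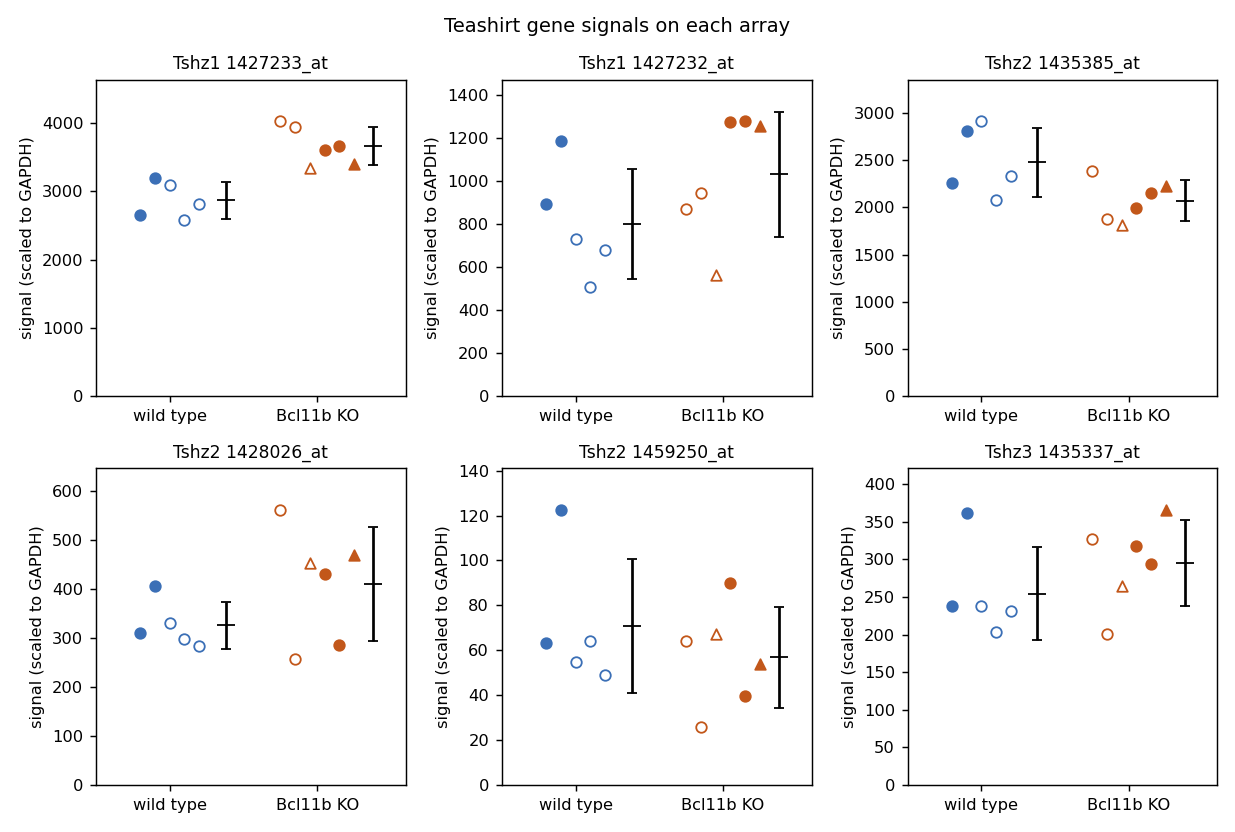
Signal of each teashirt probe set on each array (linear axis from 0, scaled to GAPDH), with wild type in blue, Bcl11b KO in orange, circles for males, triangles for females, and filled symbols for the 5 arrays of higher poly-A control signal. Black marks are the mean ± SD (n = 5 and n = 6); only Tshz1 1427233_at shows no overlap, and the filled symbols of Tshz1 1427232_at sit at 893.6 or above.

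Tshz2 was lower in the KO on its brightest probe set, with overlap. On 1435385_at the wild type signals were 2256.5, 2812.3, 2916.5, 2077.6 and 2329.9, and the KO signals ran from 1813.3 through a median of 2069 to 2385.9. Replicates 2, 3 and 4 of the KO lay below every wild type array, and wild type 2 and 3 lay above every KO array. The KO mean of 2074 ± 220 (SD, n = 6) was 83.7% of the wild type mean of 2479 ± 366 (SD, n = 5), a difference of -0.25 ± 0.12 (SE) on the log2 scale.

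The probe sets of Tshz2 did not share a direction. Probe set 1428026_at read 310.6, 405.2, 330.3, 298.1 and 284.1 in wild type, and from 255.8 through a median of 441 to 561 in the KO. Here 4 KO arrays lay above every wild type array and KO replicate 2 lay below them all, with a difference of 0.28 ± 0.19 (SE). Probe set 1459250_at was dim, at 63.2, 122.6, 54.8, 64.3 and 49 in wild type and from 26 through a median of 59 to 90.1 in the KO, with a difference of -0.26 ± 0.25 (SE). KO replicates 2 and 5 lay below every wild type array and wild type 2 above every KO array, and the rest overlapped. Averaged over its 3 probe sets, Tshz2 differed by -0.08 on the log2 scale. The arrays cannot say which transcript forms of Tshz2 each probe set reads, since probe positions were not used here.

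Tshz3 had 1 probe set, 1435337_at, at 238, 361.5, 238.4, 203.2 and 231.9 in wild type and from 200.5 through a median of 306 to 366.2 in the KO. KO replicate 6 lay above all wild type arrays, KO replicate 2 lay below them all, and the difference was 0.20 ± 0.18 (SE). In whole tissue, more cells of a type cannot be told apart from more RNA per cell for any of the 3 genes.

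The direction of each of the 6 differences held under every alternative setting run, including the 11 fits that left out 1 array each. Tshz1 1427233_at ranged from 0.32 to 0.39 without 1 array and Tshz2 1435385_at from -0.31 to -0.19. The others moved more. Tshz1 1427232_at went from 0.36 to 0.21 without wild type 4, and Tshz2 1428026_at from 0.28 to 0.18 without KO replicate 1. Tshz2 1459250_at went from -0.26 to -0.08 without wild type 2 and to -0.11 without KO replicate 2, and Tshz3 from 0.20 to 0.33 without wild type 2 and to 0.14 without wild type 4. Scaling had more effect: with arrays scaled to spiked hybridization controls, the median difference of all probe sets moved from 0.05 to -0.13, and Tshz1 1427233_at to 0.15, Tshz2 1435385_at to -0.45 and Tshz3 to 0.01. Relative to that median, the differences were 0.28 for Tshz1 1427233_at, -0.32 for Tshz2 1435385_at and 0.14 for Tshz3, close to 0.31, -0.30 and 0.16 with the GAPDH scaling.

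**Figure D2:**
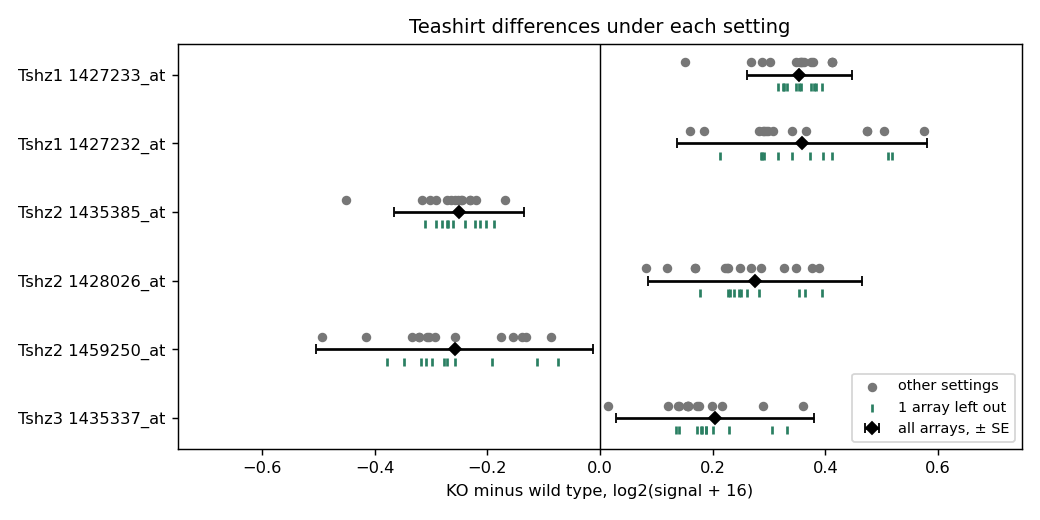
Difference between Bcl11b KO and wild type in log2(signal + 16) for each teashirt probe set (x axis), with all arrays (diamond, ± SE), under other settings (grey dots) and with 1 array left out (green ticks). No probe set crosses 0, and the grey dots of Tshz1 1427233_at reach down to 0.15 and those of Tshz3 to 0.01, both with scaling to spiked controls.

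A difference between probe sets of the same array hardly depends on a scaling that multiplies all values of the array. The pseudocount keeps such a scaling from cancelling fully, more so for dim probe sets, and quantile normalization does not cancel. The absolute size of the difference has no meaning, because each probe set has its own brightness, but its shift between groups does. For Tshz1 1427233_at minus Tshz2 1435385_at, the wild type arrays gave 0.23, 0.18, 0.09, 0.31 and 0.27, and the KO arrays gave 0.75, 1.06, 0.88, 0.85, 0.77 and 0.61. Every KO array was above every wild type array, and the means were 0.22 ± 0.09 (SD, n = 5) and 0.82 ± 0.15 (SD, n = 6), a shift of 0.60. The shift lay between 0.53 and 0.68 under 9 other settings and between 0.55 and 0.65 without 1 array. Of these settings, scaling to the array median or to spiked controls (0.60 each) could hardly change it. Nor could pseudocounts of 1 (0.61) and 64 (0.59) at these signals. Quantile normalization gave 0.58. It shows that the readings of these probe sets moved unequally, not that either gene stayed constant. It also draws on the same contrast that chose the genes. No other pair among the 6 teashirt probe sets was without overlap. The share over pairs of all probe sets was not counted, so nothing is read from the lack of overlap. The shift depends on the Tshz2 probe set. Tshz1 1427233_at minus Tshz2 1428026_at shifted by only 0.08, with overlap (wild type 2.93 to 3.24, KO 2.81 to 3.86). Minus Tshz2 1459250_at it shifted by 0.61, also with overlap (wild type 4.53 to 5.46, KO 5.09 to 6.56). Tshz2 1435385_at minus Tshz2 1428026_at itself shifted by -0.525.

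By the same measure the mean gap between the Tshz1 probe sets was alike in both genotypes, while the gap differed among arrays. With the spread given here, a small unequal shift would not show. Tshz1 1427233_at minus Tshz1 1427232_at averaged 1.87 ± 0.37 in wild type (SD, n = 5), against 1.87 ± 0.46 in the KO (SD, n = 6). In both genotypes, however, the values fell apart by poly-A control signal: wild type 1 and 2 and KO replicates 4, 5 and 6 read between 1.42 and 1.55, and the other 6 arrays between 2.02 and 2.53.

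**Figure D3:**
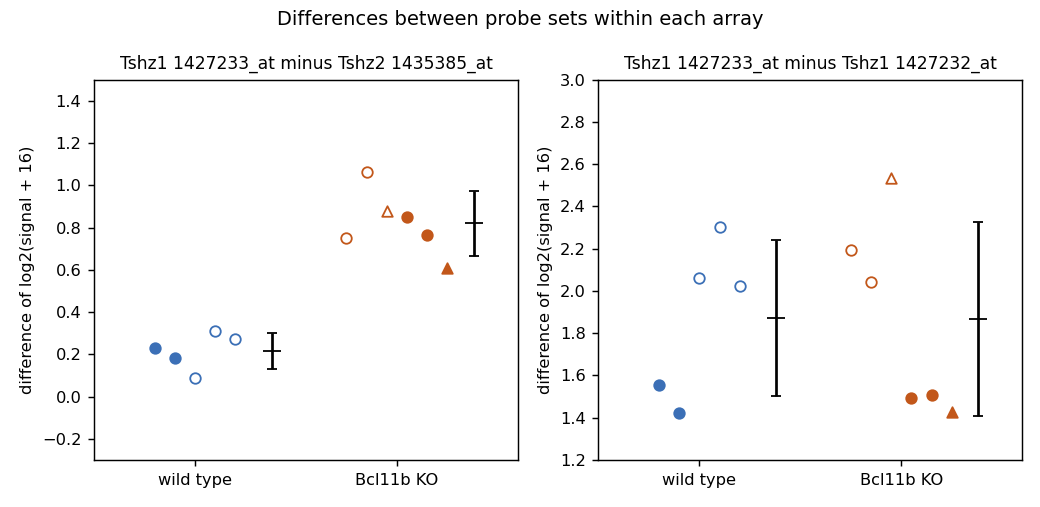
Difference in log2(signal + 16) within each array between Tshz1 1427233_at and either Tshz2 1435385_at (left) or the other Tshz1 probe set (right), by genotype, with symbols as in the plot of signals by array and mean ± SD in black (n = 5 and n = 6). On the left all 6 KO arrays (0.61 to 1.06) lie above the wild type arrays (0.09 to 0.31), and on the right filled and open symbols separate within both genotypes.

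Poly-A controls are bacterial transcripts added to the RNA before labelling. Their mean log2 signal left a gap of 0.34 between the 5 arrays named above and the other 6, a split that crosses the genotypes and was compared after the data had been seen. The same 5 arrays also had the higher median signals, 75.4 to 86.3, beside 56.6 to 75.2 on the other 6. Poly-A signal therefore cannot be told apart here from the median signal of the array. Between these sets of arrays 1950 probe sets differed (limma with genotype in the model, adjusted p under 0.05), which is 5.79% of those tested, and 1 of the 6 teashirt probe sets was among them. Tshz1 1427232_at read from 893.6 to 1277.4 on the higher poly-A arrays and from 509.1 to 943.5 on the others, a difference of 0.69 ± 0.15 (SE; limma, adjusted p = 0.0119, with a range of 0.00824 to 0.164 over the alternatives). The difference was seen within each genotype, with means of 1038 and 640 in wild type and of 1268 and 792 in the KO. It no longer passed with scaling to the array median (0.40, adjusted p = 0.164 in limma), with scaling to the spiked hybridization controls (0.55, adjusted p = 0.0568) or without wild type 2 (0.63, adjusted p = 0.069).

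The remaining teashirt probe sets did not pass between the poly-A sets. Tshz1 1427233_at differed by -0.02 ± 0.09 (SE; limma, adjusted p = 0.882) and Tshz3 by 0.33 ± 0.15 (SE; limma, adjusted p = 0.184), and the Tshz2 probe sets had adjusted p between 0.359 and 0.853. Within the higher and the lower set, KO minus wild type was 0.29 and 0.41 for Tshz1 1427233_at, 0.30 and 0.28 for Tshz1 1427232_at, -0.25 and -0.26 for Tshz2 1435385_at, and 0.14 and 0.20 for Tshz3. The genotype differences of these genes therefore had the same direction in both sets.

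RNA integrity moved with the brightest Tshz2 probe set. The GAPDH 3'/5' ratio, which rises as RNA is degraded or amplified less far from its 3' end, ranged from 1.88 to 2.27 on wild type arrays and from 1.82 to 2.70 on KO arrays, with KO replicates 3 (2.70) and 2 (2.42) highest. After each group's mean was subtracted, Tshz2 1435385_at was lower where this ratio was higher (11 arrays, r = -0.755, permutation p = 0.00352; rho = -0.845, permutation p = 0.00081; adjusted p = 0.0393 over 16 relations added after the data had been seen). Without the 2 arrays farthest from the median r was -0.68. The other 5 teashirt probe sets also had r below 0 with the ratio and did not pass. Tshz3 was near, with r = -0.614 (permutation p = 0.0498), rho = -0.8 (permutation p = 0.00794), adjusted p = 0.137, and r = -0.701 without 2 arrays. In these permutation tests adjusted p was 0.137 for Tshz1 1427232_at and 0.321 for Tshz1 1427233_at. It was 0.351 for Tshz2 1428026_at and 0.426 for Tshz2 1459250_at. Without KO replicates 2 and 3 the difference between KO and wild type was -0.17 for Tshz2 1435385_at and 0.36 for Tshz1 1427233_at, while Tshz1 1427232_at went from 0.36 to 0.57, Tshz3 from 0.20 to 0.36 and Tshz2 1459250_at from -0.26 to -0.14. The part of RNA integrity in these differences was not tested.

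Among the same 16 relations, 3 others passed. A relation with the array's median signal cannot be told apart from a difference between the poly-A sets, which split on that signal too. Tshz1 1427232_at followed the array's median signal (r = 0.787, permutation p = 0.00756; rho = 0.809, permutation p = 0.00688; adjusted p = 0.0393; r = 0.838 without 2 arrays), and so did Tshz3 (r = 0.761, permutation p = 0.00982; rho = 0.791, permutation p = 0.00661; adjusted p = 0.0393; r = 0.554 without 2 arrays). The dimmer Tshz2 probe sets, 1428026_at and 1459250_at, followed each other (r = 0.79, permutation p = 0.0075; rho = 0.845, permutation p = 0.00824; adjusted p = 0.0393; r = 0.619 without 2 arrays). The 2 probe sets of Tshz1 did not pass with each other (r = 0.375, permutation p = 0.285; rho = 0.445, permutation p = 0.198; adjusted p = 0.351; r = 0.301 without 2 arrays).

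**Figure D4:**
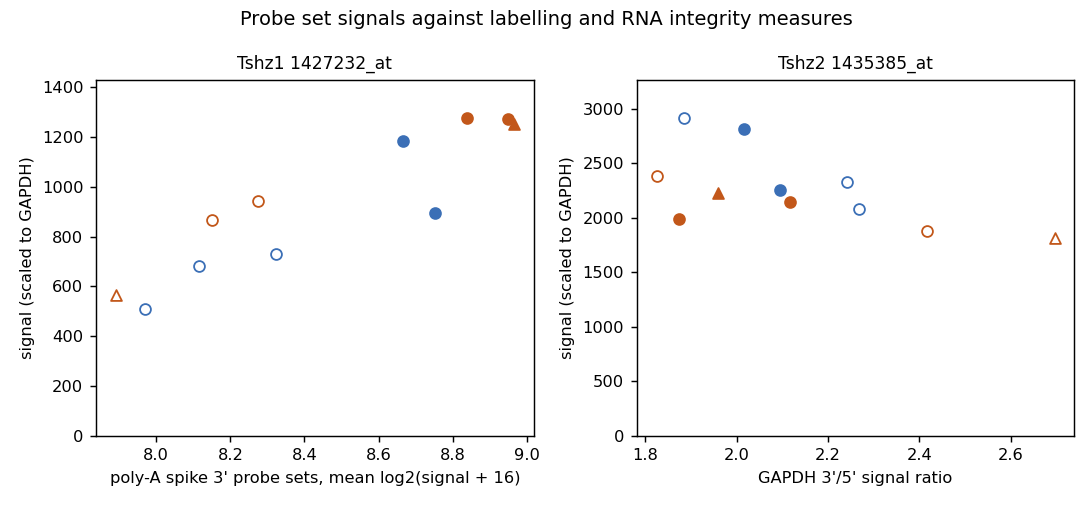
Signal of Tshz1 1427232_at against the mean log2 signal of the poly-A controls (left) and of Tshz2 1435385_at against the GAPDH 3'/5' ratio (right), 1 point for each of the 11 arrays, with symbols as in the plot of signals by array. The 5 arrays of higher poly-A signal hold Tshz1 1427232_at values of 893.6 to 1277.4, and KO replicates 2 and 3 combine the highest ratios with Tshz2 signals of 1875.2 and 1813.3.

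Sex could be compared only in the KO, with 2 females and 4 males. On Tshz1 1427233_at the females read 3345.1 and 3404.8 and the males 3604 to 4032, a difference of -0.17 ± 0.13 (SE, limma, adjusted p = 0.774). The share of all probe sets on which both females lay outside the male range was not counted, so nothing is read from that order. No teashirt probe set passed, with adjusted p between 0.774 and 0.96, and 0 of 6 had an unadjusted p under 0.05 in limma. Of all probe sets 14 passed (0.0416%), among them those of Xist and of the Y-linked genes Eif2s3y, Kdm5d and Uty, and 2748 (8.16%) had an unadjusted p under 0.05.

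The 6 KO arrays gave no relation that passed between the brightest probe sets of the members, or between them and the Bcl11b signal that the KO arrays still show. Tshz2 with Tshz3 gave r = 0.719 (exact permutation p = 0.0986; rho = 0.829, exact permutation p = 0.0583; adjusted p = 0.296 over 6 relations; r = 0.844 without the 2 arrays farthest from the median). Tshz1 with Bcl11b gave r = 0.808 (exact permutation p = 0.0556; rho = 0.771, exact permutation p = 0.103; adjusted p = 0.296), and only 0.406 without 2 arrays. The other 4 relations had adjusted p of 0.364 to 0.711. Over all 11 arrays as deviations from their group means, the adjusted p of the 6 relations were 0.063 to 0.517.

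The genes whose deviations from the group means were most like those of the members, of 15132 genes over 11 arrays, were found for each brightest probe set. For Tshz1 they were Retreg1 (r = 0.941, rho = 0.882), Stx3 (r = 0.923, rho = 0.955) and Mdp1 (r = 0.915, rho = 0.864). Mid1ip1 (r = 0.946, rho = 0.964), Rapgef2 (r = 0.939, rho = 0.9) and Cdkal1 (r = 0.926, rho = 0.945) were closest to Tshz2, and Tnfrsf21 (r = 0.97, rho = 0.973), Rnf10 (r = 0.961, rho = 0.955) and Pcsk1 (r = 0.959, rho = 0.873) to Tshz3. All points share their arrays, and so their scaling and RNA quality, and the highest of many correlations are shown. None of these 9 genes passed between KO and wild type (limma, adjusted p of 0.603 to 0.998).

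RNA of the corepressors and chromatin proteins that teashirt factors work with was read next. Of 9 such partners 0 passed in either direction, beside 0.455% of all probe sets, and 0 had an unadjusted p under 0.05 in limma, beside 6.92% of all probe sets, and their median difference was 0.03 beside 0.05 over all probe sets. Ctbp1 and Ctbp2, the corepressors that teashirt proteins bind directly, differed by 0.03 ± 0.10 and 0.12 ± 0.16 (SE). Hdac2, a histone deacetylase, read 4099 ± 336 in wild type (SD, n = 5), against 3364 ± 789 in the KO (SD, n = 6; limma, adjusted p = 0.727), and Hdac1 differed by 0.18 ± 0.13 (SE; limma, adjusted p = 0.92).

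In the fly, teashirt acts with homothorax, extradenticle and the eye-forming genes. Of the 21 mouse counterparts listed 18 were tested, and 0 passed in either direction. Of these 18, 3 had an unadjusted p under 0.05 in limma (Meis2, Pbx4 and Six4), beside 6.92% of all probe sets. The median difference was 0.10, beside 0.05 over all probe sets. Meis2, a homothorax counterpart, read 1445 ± 261 in wild type (SD, n = 5), against 2058 ± 441 in the KO (SD, n = 6), a difference of 0.49 ± 0.16 (SE; limma, adjusted p = 0.356). Pbx4, an extradenticle counterpart, was dim and differed by 0.74 ± 0.26 (SE; limma, adjusted p = 0.424). At most 1 gene of the list passed under any alternative.

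Genes reported downstream of mouse teashirt factors or acting with them gave a similar picture. Of 12 listed 9 were tested, with 0 passing in either direction, 0 with an unadjusted p under 0.05 in limma, and a median difference of 0.05. Myocd, the smooth muscle coactivator held in check by Tshz3 together with Sox9 in the ureter, differed by 0.52 ± 0.27 (SE; limma, adjusted p = 0.8), and its target Myh11 by 0.52 ± 0.25 (SE; limma, adjusted p = 0.744). Prokr2, the prokineticin receptor linked to Tshz1 in olfactory bulb interneurons, was dim at 29.6 ± 6.41 in wild type (SD, n = 5), against 42.5 ± 18.9 in the KO (SD, n = 6; limma, adjusted p = 0.929). Its ligand gene Prok2 and the muscle factor Myog lay below the filter and were not tested, and Prok1 was not tested either.

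The nearest protein-coding genes with a probe set of their own on either side of each member were examined as well. The neighbours of Tshz1, Zfp516 and Zadh2, differed by 0.24 ± 0.17 and 0.21 ± 0.15 (SE). Zfp64 and Zfp217 beside Tshz2 differed by 0.05 ± 0.13 and 0.19 ± 0.16 (SE), and Zfp507 and Zfp536 beside Tshz3 by 0.20 ± 0.18 and 0.04 ± 0.23 (SE). None of the 6 passed (limma, adjusted p of 0.919 to 0.995, 0 with an unadjusted p under 0.05), their median was 0.19, and whether a neighbour's difference was unlike its member's was not tested.

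**Figure D5:**
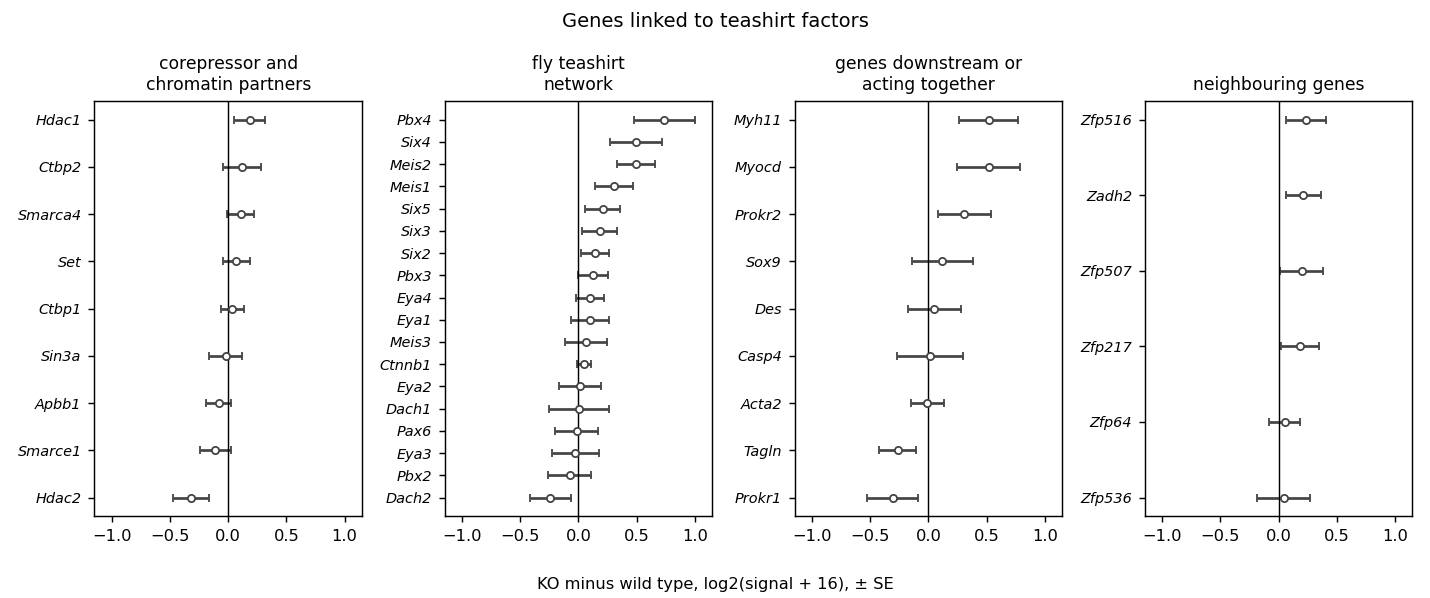
Difference between Bcl11b KO and wild type in log2(signal + 16), ± SE, for genes linked to teashirt factors, in 4 groups (corepressor and chromatin partners, counterparts of the fly network, genes downstream or acting together, and chromosomal neighbours). Open circles are genes that did not pass at an adjusted p under 0.05, which is all 42 shown, and the largest differences are those of Pbx4 (0.74), Myh11 and Myocd (0.52 each).

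Markers of other cells that whole MOE can hold were read because teashirt genes are expressed in olfactory bulb interneurons, glia and mesenchyme as well. Of 9 olfactory bulb and forebrain neuron markers 0 passed, but KO replicate 5 stood out with Dlx1 at 375.5 and Gad1 at 829.6, followed by KO replicate 6 at 91.3 and 224, while no wild type array exceeded 36.2 and 114.5. Tbr1, a factor of excitatory forebrain neurons, was highest there too (148) and read 58.5, 55.9, 27.9, 41.7 and 74.6 on KO replicates 1, 2, 3, 4 and 6, so that 5 KO arrays lay above the highest wild type array (30.5), a difference of 1.16 ± 0.31 (SE; limma, adjusted p = 0.15). Dlx2, Gad2 and Eomes were highest on KO replicate 5 as well. Sp8 was instead highest on KO replicate 4 (1292.6), Dlx5 on KO replicate 1 (217.9) and Slc17a7 on KO replicate 6 (38.7). Eomes, Gad2, Sp8 and Dlx5 on KO replicate 6 lay within the wild type range. Between the groups 7 of the 9 markers had a positive difference, while Eomes differed by -0.13 and Gad2 by -0.05. The summed signal of the list ran from 1074 to 1927 in wild type and from 1026 to 3635 in the KO. Tshz1 1427233_at was highest on KO replicate 1. There Dlx1 was 2, Gad1 8.7, Slc17a7 14.9, Dlx2 28.8, Eomes 43.2, Tbr1 58.5, Gad2 130.9, Dlx5 217.9 and Sp8 1137.5. Without KO replicates 5 and 6 the difference between KO and wild type was 0.38 for Tshz1 1427233_at, 0.18 for Tshz1 1427232_at, -0.29 for Tshz2 1435385_at and 0.12 for Tshz3. The part of forebrain RNA in the teashirt differences was not tested.

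Mature OSN markers moved with the genotype, as 4 of 7 were lower in the KO (Stoml3, Cnga4, Gng13 and Gnal) and 0 higher, with between 1 and 7 lower under the alternatives, a median of -0.69 and a summed signal of 10788 to 14572 in wild type and 6039 to 8176 in the KO. Of 4 OSN precursor markers 2 were higher, Neurod1 and Neurog1, with between 0 and 3 higher under the alternatives, a median of 0.79 and summed signals of 3796 to 5328 and 5119 to 7815. The embryonic globins Hbb-y and Hbb-bh1 were higher, 2 of 3 erythroid markers, with summed signals of 724 to 1085 and 1122 to 1561. Counts in the marker lists stand beside 0.455% of all probe sets passing in either direction, and list medians beside 0.05 over all probe sets. In the lists for immature OSNs, basal cells, sustentacular cells, ensheathing glia, mesenchyme, smooth muscle, cartilage and endothelium 0 genes passed, with medians between -0.26 and 0.48. The genes of smallest p in these lists were Dcx (-0.25) and Gng8 (-0.21) for immature OSNs, Sox2 (0.06) and Krt14 (-0.08) for basal cells, and Cyp1a2 (-0.46) and Sec14l3 (-0.16) for sustentacular cells. Fabp7, a fatty acid binding protein of glia, differed by 0.86 ± 0.29 (SE; limma, adjusted p = 0.405) and Foxd3 by 0.58 (limma, adjusted p = 0.603), with summed glial signals of 4225 to 7745 in wild type and 3664 to 12431 in the KO. In mesenchyme Pdgfra differed by 0.41 (limma, adjusted p = 0.437) and Col1a2 by 0.16, with summed signals of 30155 to 38076 and 27898 to 42646. The remaining differences were 0.52 for Myh11 and -0.70 for Cnn1 in smooth muscle, -0.59 for Matn1 and -0.26 for Col2a1 in cartilage, and 0.34 for Kdr and 0.15 for Pecam1 in endothelium. The part of these cell types in the teashirt signals was not tested.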

How the data were processed

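Per the labels and the study's methods, total RNA of single MOEs was amplified in 2 cycles into biotinylated cRNA and hybridized to Affymetrix Mouse Genome 430 2.0 arrays. Each deposited value is the intensity of a probe set on an array, which the authors scaled linearly to a GAPDH probe set in GCOS (version not given in the sources used here), so a GAPDH difference between groups would move every value. The file held 45101 probe sets, 64 of them controls; 34958 had 1 gene symbol, 932 several and 9211 none. Detection calls were not used.

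Values were taken as log2(signal + 16), which understates changes of dim probe sets. Controls and probe sets with a mean signal under 20 were left out, leaving 33662. KO was compared with wild type in limma 3.58.1 (R 4.3.3; lmFit, eBayes with trend, no covariate), with Benjamini-Hochberg adjustment and a threshold of 0.05. Sex was a contrast in the KO, with all arrays in the fit, and correlations used permutation tests (scipy 1.17.1; exact for 6 arrays, 100000 permutations within groups for 11). The scripts were tested on simulated data. The labels do not name litters, the p-values measure the spread between these preparations, and the number of arrays limits the precision. A gene in a list was read on its brightest tested probe set.

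Members and gene lists were chosen with earlier results of these data known. Named were all member probe sets, Bcl11b, chromosomal neighbours (order from the RefSeq gene table) and the 3 genes most like each member. In each list the genes past the threshold and the 2 of smallest p were named too. Ctbp1, Ctbp2, Prokr2, Six4, Cnga2, Gap43, the forebrain markers other than Tbr1 and Dlx1, and sex-linked genes were named outside these rules. Alternatives were other scalings (array median, quantile, spiked controls), pseudocounts, filters, no trend, array weights, males only, sex or poly-A signal as a covariate, each poly-A set alone, a replicate block, and arrays left out.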

Additional observations from a re-analysis of the deposited data

Results flagged for a closer look

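On 2 of 14 checks a single array lay far from the rest of its group, both times wild type 2, and chance gives about 1 such array in 20 checks. Tshz2 1459250_at read 122.6 on that array, with the other wild type arrays at 49 to 64.3. Tshz3 1435337_at read 361.5 there, with the others at 203.2 to 238.4. The same array had the highest median signal of the wild type arrays (85.5) and the highest wild type Tshz1 1427232_at (1183.3). Without wild type 2 the difference between KO and wild type was -0.08 for Tshz2 1459250_at and 0.33 for Tshz3, beside -0.26 and 0.20 with all arrays.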

How the results depend on the processing

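The 6 teashirt differences kept their direction under every alternative fitted, and the values of Tshz1 1427233_at and Tshz2 1435385_at moved by more than their replicate spread only with scaling to spiked controls (0.15 and -0.45). No sex difference and no correlation within the KO passed under any alternative, although the sign of some turned. Over all probe sets, 82 were higher and 71 lower in the reported fit. Lower calls were 173 with quantile normalization, 289 with spiked controls, 44 with sex and 107 with poly-A signal as a covariate. Array weights gave 225 higher and 120 lower, and without both KO arrays of highest GAPDH ratio 204 were higher. With fewer arrays, the higher poly-A set gave 19 higher and 12 lower and the lower set 29 and 10, with 2 and 3 list genes called beside 8 in the reported fit. Without KO replicates 5 and 6, an alternative chosen after seeing the data, 36 were lower. Leaving out 1 array gave 49 to 128 higher calls and 36 to 85 lower calls. The higher count moved by over 1.5 times without wild type 3 (49), 4 (49) or 5 (50) or KO 2 (128), and the lower count without wild type 1 (43), 2 (41), 3 (36) or 5 (47). The cause was not tested.

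With the replicate number as a block, Tshz1 1427233_at differed by 0.37, Tshz2 1435385_at by -0.27 and Tshz3 by 0.14, while 62 probe sets were higher, 29 lower and 4 list genes called. Same-numbered samples had deviations that correlated between -0.283 and 0.009, so the numbers do not pair the samples. The alternatives for the poly-A difference and the within-array shift were also chosen after seeing the data.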
